A study of Rattus norvegicus with 13 samples.

Results

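The astrocyte microRNA (miRNA) pool was taken as the rat miRNAs that the scanner software called detected on all 4 astrocyte arrays. It held 160 of the 350 miRNAs on the array. Each miRNA was expressed as its share, the percentage of the array's summed positive rat miRNA signal, and the shares were set against those on the 9 arrays of the other 3 cell types. All RNA came from primary cultures of the cortex of rats at postnatal day 1, which the sample labels place at 10 days in vitro. Neurons (n = 3) were grown in Neurobasal medium with cytosine arabinoside, which kills dividing cells. Astrocytes (n = 4) were grown in MEM with horse serum and shaken overnight to remove other cells. Oligodendrocytes (n = 3) were shaken off mixed cultures and replated on poly-lysine, and microglia (n = 3) were the floating cells of the mixed cultures, collected at day 7 according to the growth protocol. Each array received 100 ng of total RNA labelled with Cy3. No genotype, strain or treatment is given beyond these media. The series text calls the samples biological replicates without naming animals or platings.

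A miRNA is a short RNA that guides Argonaute proteins to messenger RNAs, mainly by pairing of its seed, bases 2 to 8 from the 5′ end, and lowers their translation or stability. miRNAs with the same seed form a family and can bind overlapping sets of targets. Astrocytes are the cortical glia that buffer ions and transmitters, supply neurons and react to injury, and they share a neural progenitor with neurons and oligodendrocytes, while microglia descend from yolk sac macrophages.

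The mature sequences below are those of the leading families of the pool and of the members that stood highest over the other cell types, with the seed in capitals. They are RefSeq sequences of the assembly GRCr8, written 5′ to 3′.
let-7c: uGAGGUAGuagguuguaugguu
let-7a: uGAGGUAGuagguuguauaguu
let-7f: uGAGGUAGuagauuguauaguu
let-7b: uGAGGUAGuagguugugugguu
miR-21: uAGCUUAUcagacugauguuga
miR-9: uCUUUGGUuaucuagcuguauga
miR-9*: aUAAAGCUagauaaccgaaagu
miR-29b: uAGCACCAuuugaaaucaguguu
miR-29a: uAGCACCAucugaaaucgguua
miR-125b-5p: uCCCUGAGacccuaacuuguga
miR-34a: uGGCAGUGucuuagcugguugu
miR-449a: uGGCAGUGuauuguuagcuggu
miR-34b: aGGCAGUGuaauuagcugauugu
miR-34c: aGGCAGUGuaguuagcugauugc
miR-31: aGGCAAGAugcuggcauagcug
miR-143: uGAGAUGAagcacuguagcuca
miR-21 lies at chr10:71902653-71902674 on the minus strand in GRCr8, inside no annotated protein-coding or long noncoding RNA gene. miR-449a lies at chr2:46403925-46403946 on the plus strand, inside the long noncoding RNA gene LOC134485839. miR-31 lies at chr5:108714906-108714927 on the minus strand, inside LOC130062807, and miR-143 at chr18:57371373-57371394 on the minus strand, inside Carmn, both long noncoding RNA genes. The strand of these genes was not compared. Of the 160 members, 138 could be matched to a sequence, and these carried 96.2% of the astrocyte signal.

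Detection differed between the 4 astrocyte arrays. They detected 197, 192, 160 and 208 miRNAs, and all 31 miRNAs detected on exactly 3 of them were missed on array 3, so the pool is the list of array 3 and would hold 191 miRNAs without it. The lowest detected signal was 8.05 units on array 3 and 3.22 to 3.81 on the others. The 31 missed miRNAs were dim, with mean shares from 0.00206% for miR-342-5p to 0.0254% for miR-290. The 5 dimmest members were miR-339-3p (0.00856%), miR-29a* (0.00813%), miR-298 (0.0081%), miR-505 (0.00658%) and miR-17-3p (0.00603%), so the edges overlapped. The summed signal was 147231 to 300388 units on the astrocyte arrays and 107778 to 514312 on the other 9, and the members carried 99.5% to 99.7% of it on the astrocyte arrays. Neurons and oligodendrocytes were hybridised on 1 slide and astrocytes and microglia on another, so only the comparison with microglia lies within a slide. In the other comparisons slide and cell type cannot be told apart. Oligodendrocyte array 2 and microglia array 2 stood apart from the others of their type, and the named results whose call changed without them are given with the comparisons.

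A few miRNAs carried most of the astrocyte signal. The 9 brightest made up 50% of it on every astrocyte array, and 49 to 51 made up 90%. The 10 brightest held 53.7% ± 0.68 (SD, n = 4) and the 20 brightest 71.1% ± 0.4. A share of at least 5% was reached by 4 members, which together held 31.2%, and 20 more lay between 1% and 5% and held 44.5%. Another 59 members lay between 0.1% and 1% and held 20.7%. The 72 members from 0.01% to 0.1% held 3.11%, and the last 5 held 0.0374%, so the members below 0.1% together carried less signal than let-7b alone, at 3.57%. Signal depends on each probe's hybridisation and labelling as well as on copy number, so these are shares of signal, not of molecules, and the order of 2 miRNAs is an order of signal.

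**Figure D1:**
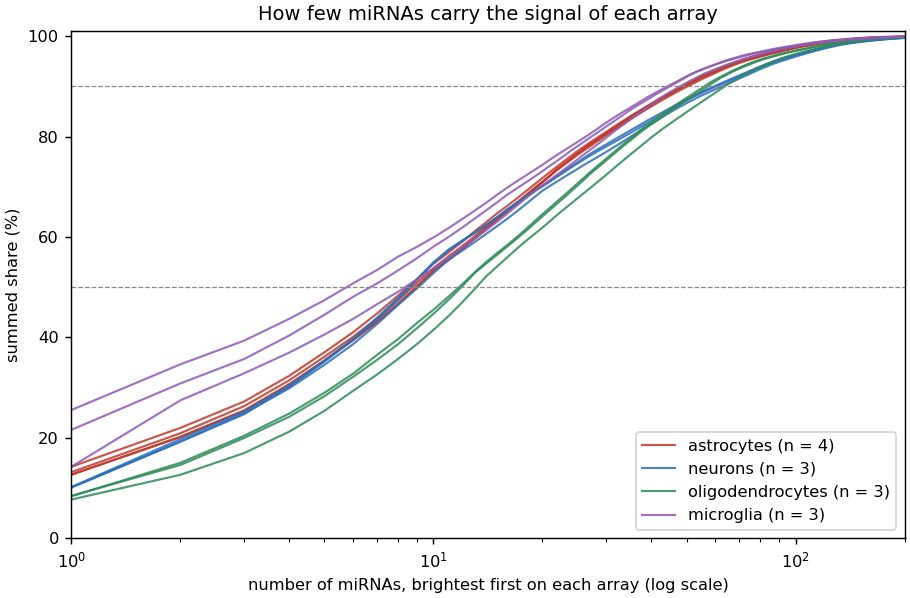
Summed share of the signal (y axis, %) against the number of miRNAs, brightest first on each array (x axis, log scale), with 1 line per array and dashed lines at 50% and 90%. The 4 astrocyte lines lie close together and cross 50% at 9 miRNAs and 90% at 49 to 51, while the 3 oligodendrocyte lines cross 50% at 12 to 14.

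In neurons the 10 brightest held 54.2% ± 1.19 (SD, n = 3), and the ranges overlapped. Further down, the neuronal signal was spread wider: the 50 brightest held 86.7% to 87.4% in neurons and 89.9% to 90.5% in astrocytes, and neurons needed 60 to 63 miRNAs for 90%. In oligodendrocytes the 10 brightest held 43.9% ± 2.13, below every astrocyte array, and 12 to 14 miRNAs were needed for 50%. In microglia they held 57.2% ± 3.17, with a range of 53.7% to 59.9% that overlapped the astrocyte range of 53.1% to 54.7%. Without microglia array 2 the range was 58.1% to 59.9%, above every astrocyte array. These are descriptions without a test. The 10 brightest astrocyte miRNAs held 45.2% of the neuronal, 36.6% of the oligodendrocyte and 30.6% of the microglial signal.

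miR-21, which is induced in reactive astrocytes and many cancers and represses inhibitors of growth signalling, had the highest share in the astrocyte pool. Its share was 14.2%, 13.1%, 12.6% and 12.6% on the 4 astrocyte arrays. Neurons held 0.257% to 0.259% and oligodendrocytes 2.46% to 4.28%. The microglia arrays held 21.5%, 14.2% and 25.5%. The neuron and oligodendrocyte arrays lay below every astrocyte array, and microglia array 2 lay just above the highest of them. On the log2 scale miR-21 was higher than in neurons by 5.67 ± 0.21 (SE; limma, adjusted p = 2.75e-10), a 50.9-fold difference, and higher than in oligodendrocytes by 2.09 ± 0.21 (adjusted p = 5.21e-06). It was lower than in microglia, with a log2 difference of -0.60 ± 0.21 (limma, adjusted p = 0.0246), and that call was lost when astrocyte array 3 or 4 or microglia array 1 or 3 was left out, with differences of -0.58 to -0.42. The difference was 0.12 in the authors' deposited table and -0.84 without microglia array 2. Quantile normalization gave 0.0, which was fixed in advance, since miR-21 was the brightest miRNA on every astrocyte and microglia array.

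miR-9 and miR-9*, the 2 arms of a hairpin made in neural progenitors and their progeny, were shared with the other neural types. The share of miR-9 was 7.75%, 7.76%, 7.56% and 7.49% on the astrocyte arrays, 9.13% to 9.55% in neurons and 7.64% to 8.38% in oligodendrocytes, against 0.0145% to 0.0168% in microglia. The neuron arrays lay above the astrocyte arrays, the oligodendrocyte arrays overlapped them and the microglia arrays lay far below. Against microglia the log2 difference was 8.96 ± 0.07 (SE; limma, adjusted p = 3.35e-16), a 498-fold difference on the same slide. The difference of -0.28 ± 0.07 from neurons passed (limma, adjusted p = 0.00222) but was lost in the authors' deposited table (-0.15). Quantile normalization gave 0.0, which was fixed in advance, since miR-9 held rank 2 on every astrocyte and neuron array. The difference of -0.08 ± 0.07 from oligodendrocytes did not pass (limma, adjusted p = 0.3). miR-9* held 3.37% ± 0.0864 (SD, n = 4), which was 44.1% of the miR-9 signal in astrocytes, 58.6% in neurons and 64.6% in oligodendrocytes. miR-9 has 3 loci in GRCr8, 2 on chromosome 2 and 1 on chromosome 1, and the array cannot tell which of them was active.

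The 4 let-7 members in the leading ranks, let-7c (5.2%), let-7a (4.71%), let-7f (4.04%) and let-7b (3.57%), belong to the family that rises as cells leave the progenitor state and represses growth genes such as Lin28 and Hmga2. They were also among the steadiest members: let-7a varied by a coefficient of variation of 0.909% over the 4 arrays, let-7c by 1% and let-7f by 1.46%, the lowest 3 among the 50 most abundant members. Their values on the 4 arrays were 4.68%, 4.68%, 4.7% and 4.77% for let-7a and 5.15%, 5.17%, 5.24% and 5.25% for let-7c. Against neurons the log2 differences were 0.00 ± 0.11 for let-7c, 0.01 ± 0.08 for let-7a, 0.12 ± 0.11 for let-7f and 0.13 ± 0.12 for let-7b, none past the threshold. With scaling to the 75th percentile all 4 were lower than in neurons, with log2 differences of -0.44 to -0.31, so the direction rests on the scaling.

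miR-125b-5p, which is abundant in neural cells and is known to promote glial identity, held 5.28% ± 0.0787 (SD, n = 4). Neurons held 10.1% ± 0.0519 and microglia 0.471% ± 0.0922. It was the leading miRNA on all 3 neuron arrays, and the astrocyte share lay between those of neurons and of every oligodendrocyte array (2.39% to 4.34%). The ranks from miR-21 down to let-7b were separated on all 4 arrays except for miR-125b-5p and let-7c, whose ranges touched, from 5.22% to 5.4% and from 5.15% to 5.25%. Further down, the ranges of neighbours overlapped for miR-16 and miR-22, miR-22 and miR-26a, miR-26a and miR-130a, let-7i and miR-99a, miR-24 and miR-23b, and miR-23b and miR-20a. The other members of the leading 20 were miR-29b (3.72%), miR-29a (3.07%) and miR-23a (2.26%). miR-16 held 2.13%, miR-22 2.02%, miR-26a 1.99%, miR-130a 1.78% and let-7i 1.57%, and miR-99a 1.54%, miR-24 1.44%, miR-23b 1.4% and miR-20a 1.3%.

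**Figure D2:**
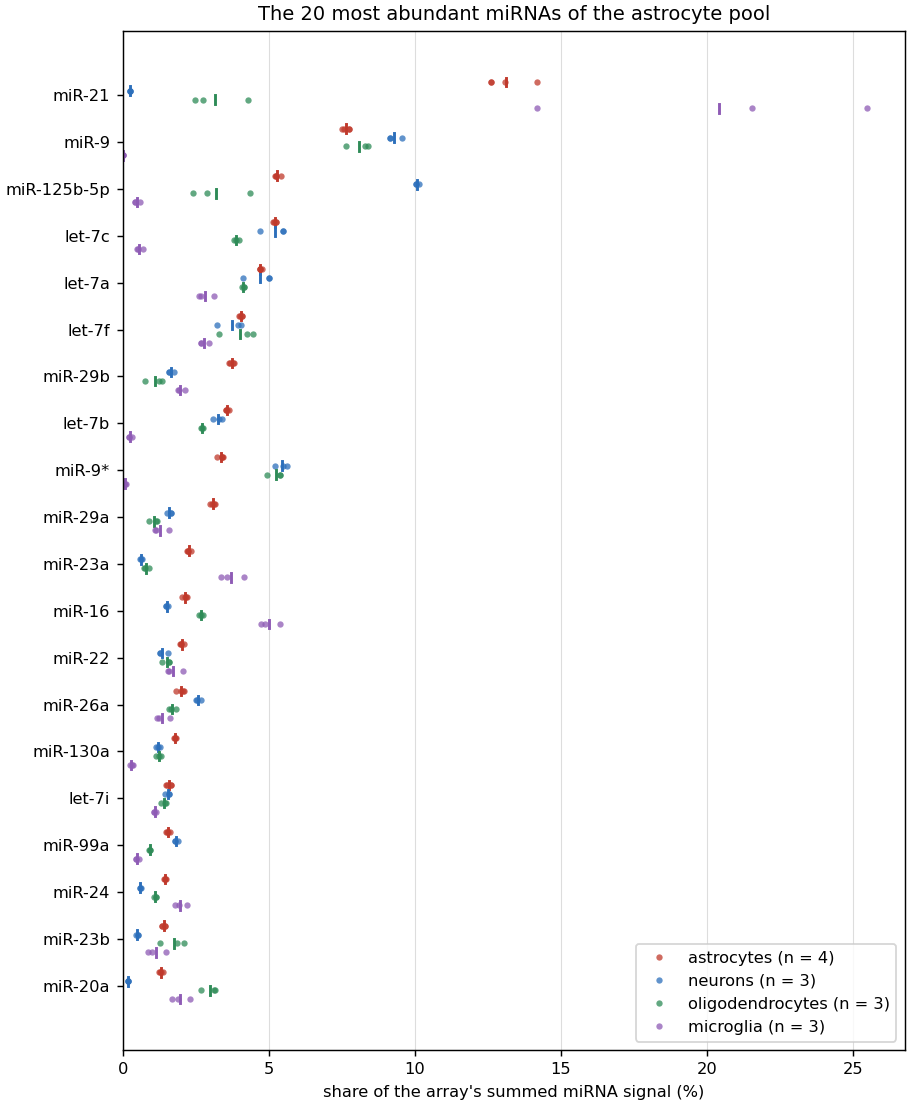
Share of the array's summed signal (x axis, %) of the 20 most abundant astrocyte miRNAs (y axis), with 1 point per array and a bar at each type's mean. miR-21 stands at 12.6% to 14.2% in astrocytes, near 0.257% in neurons and up to 25.5% in microglia, while miR-9 is near 0 only in microglia.

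Grouped by seed, the 138 members with a sequence fell into 97 seeds, 21 of them with at least 2 members. The 5 leading seeds held 55.1% of the astrocyte signal (54.6% to 56% over the 4 arrays). The let-7 seed GAGGUAG came first with 8 members and 21.1% ± 0.221 (SD, n = 4), against 20.4% ± 1.88 in neurons, 18.3% ± 0.769 in oligodendrocytes and 8.44% ± 0.667 in microglia. All 8 let-7 members, including miR-98, were higher than in microglia by limma, where 31.0% of all tested miRNAs were, and the call of let-7f was lost after quantile normalization and in the authors' deposited table. Against neurons miR-98 alone of the 8 was higher, where 31.7% of all tested miRNAs were. Against oligodendrocytes let-7b and let-7c were higher and miR-98 was lower, where 18.7% and 43.3% of all tested miRNAs were. The direction of miR-98 turned with scaling to the 75th percentile in both pairs, and against oligodendrocytes also after quantile normalization and in the deposited table. With scaling to the 75th percentile all 8 were lower than in neurons. The gap to microglia was unequal within the family: log2 differences were 3.91 ± 0.12 for let-7b, 3.32 ± 0.28 for let-7e and 3.22 ± 0.11 for let-7c, but 0.76 ± 0.08 for let-7a, 0.54 ± 0.11 for let-7f and 0.43 ± 0.09 for let-7d. let-7c and let-7a differ at 1 base, A19G counted from the 5′ end with let-7a first, and let-7f and let-7a at 1 base, G12A. The probes of such close members may share signal, which was not tested.

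The miR-29 seed AGCACCA, whose family represses collagens, DNA methyltransferases and pro-apoptotic genes, held 7.52% ± 0.145 in astrocytes with its 3 members. Neurons held 4.06% ± 0.209, oligodendrocytes 2.55% ± 0.522 and microglia 3.97% ± 0.482, and no array of those types reached the lowest astrocyte value of 7.33%. miR-29b was 3.78%, 3.68%, 3.65% and 3.79% on the astrocyte arrays and 0.743% to 2.13% on the other 9, and miR-29a was 2.97% to 3.15% against 0.882% to 1.64%. Both passed against all 3 types, with log2 differences of 0.92 to 1.80 for miR-29b and 0.94 to 1.54 for miR-29a, so that each stayed below the 2-fold limit in 1 pair. miR-29c, at 0.724%, passed against oligodendrocytes alone, and was lower than in neurons with the 3 other scalings. miR-29b and miR-29a lie within 10000 bases of each other at chr4:60617968-60618364, and a further miR-29b locus lies beside miR-29c at chr13:109098882-109099433.

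The miR-125 seed CCCUGAG held 5.71% ± 0.114 in astrocytes, 10.4% to 10.6% in neurons, 3.66% in oligodendrocytes and 0.535% in microglia. The miR-23 seed UCACAUU held 3.66% ± 0.0973, against 1.11% in neurons, 2.54% in oligodendrocytes and 4.81% in microglia. The miR-15/16 seed AGCAGCA had 5 members and 3.34%, and the miR-17/20 seed AAAGUGC 4 members and 2.59%. For the latter neurons held 0.519% and oligodendrocytes 5.18%. All 4 members of that seed were higher than in neurons and lower than in microglia, and 3 of 4 were lower than in oligodendrocytes. Over all 268 tested miRNAs 31.7%, 35.1% and 43.3% were so called. With the 3 other scalings 4 were still higher than in neurons, while 2 were lower than in oligodendrocytes and 2 to 4 lower than in microglia. Of the 14 miRNAs of the miR-17-92 cluster and its paralogs, which drive proliferation, 12 were in the pool and held 5.44% of the signal, against 1.2% in neurons, 11.3% in oligodendrocytes and 7.62% in microglia. Over all 14, 11 were higher than in neurons and 0 lower, against 31.7% and 41.4% of all tested miRNAs, and 11 were lower than in oligodendrocytes and 1 higher, against 43.3% and 18.7%. These counts were 11 to 13 and 9 with the 3 other scalings. Their median log2 difference was 1.90 against neurons, where the median over all 268 tested miRNAs was -0.10. Members without a sequence, such as miR-99a, miR-301a, miR-30b-5p and miR-30d, are not in these sums, so the miR-99, miR-130 and miR-30 families are understated.

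**Figure D3:**
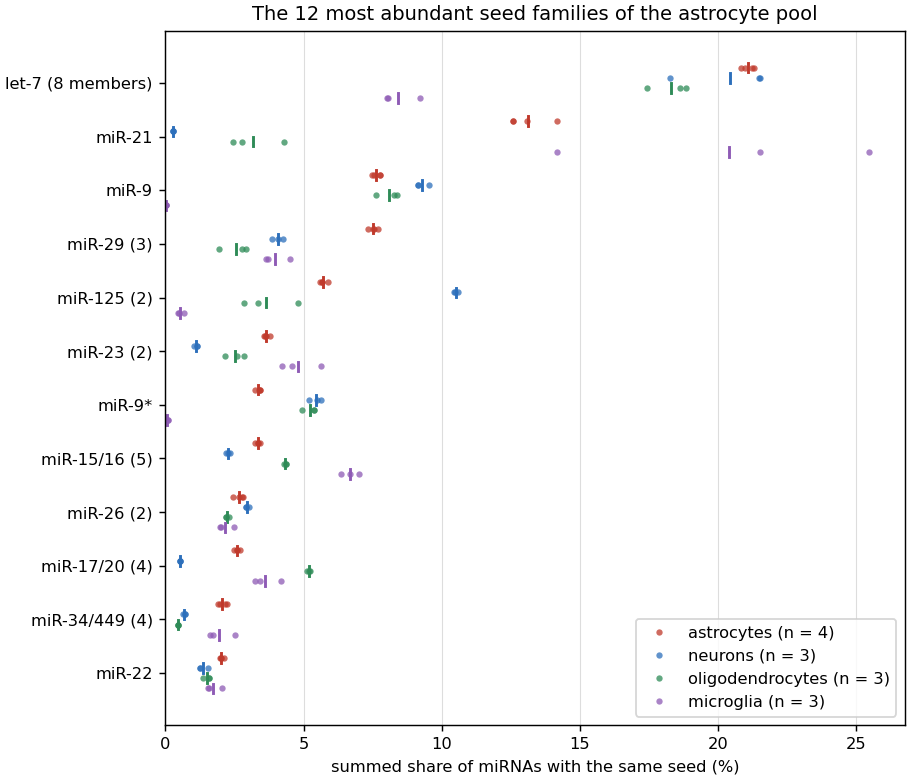
Summed share (x axis, %) of miRNAs with the same seed for the 12 most abundant seed families of the astrocyte pool (y axis, number of members in brackets), with 1 point per array and a bar at each type's mean. let-7 stands at 20.8% to 21.3% in astrocytes and 8.04% to 9.21% in microglia, and every astrocyte value of miR-29 lies above those of the other types.

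The pool was U-rich at its 5′ base, the base that Argonaute holds. miRNAs beginning with U carried 79.7% ± 0.2 (SD, n = 4) of the sequence-matched astrocyte signal, though they were 53.6% of the members and 45.1% of all 257 array entries with a sequence. In neurons they carried 73.5%, in oligodendrocytes 73.8% and in microglia 81.7%. The mean GC content weighted by signal was 41% in astrocytes, against 46.1% over members counted once. The weighted mean was also low in the other types, at 42.5% in neurons, 41.6% in oligodendrocytes and 41.9% in microglia. Across the 138 members GC content and log2 share had a Pearson r of -0.29 and a Spearman rho of -0.28, a description over miRNAs that share the same 4 libraries and whose probes depend on GC content. By position, 81 members lay within 10000 bases of another member on the same strand in GRCr8, and they held 68.2% of the signal. The other arm of the same hairpin counted as such a member, as for miR-9 and miR-9*, so this is not the share of clustered hairpins. Clustered members did not hold equal shares: miR-23a was 80.5 times the signal of miR-24-2* within chr19:40859481-40859798, and miR-125b-5p 506 times that of its other arm. Both ratios are to an arm named as the minor one. In the cluster of miR-23a (2.26%), miR-24 held 1.44% and miR-27a 1.06%. The narrowest ratios belonged to pairs such as miR-195 and miR-497, at 1.1. The pool held 15 star forms, the arm named as the minor one, and miR-129* had 499% ± 39.9 of the signal of miR-129, while miR-29a* had 0.265% ± 0.0668 of that of miR-29a.

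The overlap of 2 arrays was taken as the sum over miRNAs of the smaller of both shares, 100% for identical pools. Between astrocyte arrays it was 97.1% to 98.9%. Oligodendrocytes came closest, with a median of 70.9% (69.3% to 73.1%), then neurons with 64.8% (62.9% to 65.6%) and microglia with 55.9% (54.9% to 60.4%). The ranges of the 3 types did not overlap, nor did they without the arrays that stood apart (medians of 70.2% for oligodendrocytes and 55.3% for microglia). Within oligodendrocytes array 2 overlapped the other arrays by 86.5% and 88.5%, and those overlapped each other by 97.5%. Within microglia array 2 overlapped the others by 84.8% and 85.8%, against 94.4%.

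In the test across all 268 miRNAs detected on at least 3 arrays, most members differed from each other type. The fit was limma on log2 shares with Benjamini-Hochberg adjustment and a threshold of 0.05. Against neurons 73 of 160 members were higher and 46 lower, where 31.7% of all tested miRNAs were higher and 41.4% lower. Against oligodendrocytes 42 members were higher and 73 lower (18.7% and 43.3% of all tested). Against microglia 76 were higher and 60 lower (31.0% and 35.1% of all tested). Without oligodendrocyte array 2 the counts against that type were 49 and 76, and without microglia array 2 those against microglia were 78 and 59. Among named miRNAs, leaving out oligodendrocyte array 2 brought past the threshold miR-142-3p (0.72), miR-26a (0.30), miR-146a (1.11), miR-23b (-0.50) and miR-142-5p (0.37) against oligodendrocytes, as log2 differences by limma. let-7f turned to -0.11 there without passing. Leaving out microglia array 2 brought miR-22 (0.38) and miR-23b (0.58) past it against microglia, and miR-128 (0.36) lost its call. Members had to be detected in astrocytes, so these counts are read as a description and not as a property of the pool. Among the 119 members detected on all 13 arrays, 54 were higher and 32 lower than in neurons, 31 and 55 against oligodendrocytes, and 44 and 55 against microglia. A share can fall because another rises, and the split moved with the scaling. The higher calls were 61.3% of the calls against neurons, 42.5% with scaling to the 75th percentile, 72.8% after quantile normalization and 71.5% in the authors' deposited table. Against oligodendrocytes they were 36.5%, 52.6%, 52.6% and 50.4% in the same order. The median log2 difference over all tested miRNAs moved from -0.10 to -0.54, 0.32 and 0.28 against neurons and from -0.33 to -0.04, 0.0 and -0.09 against oligodendrocytes, and it lay between -0.08 and 0.0 against microglia under the same scalings. In bulk RNA, fewer cells of a type and less RNA per cell cannot be told apart.

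**Figure D4:**
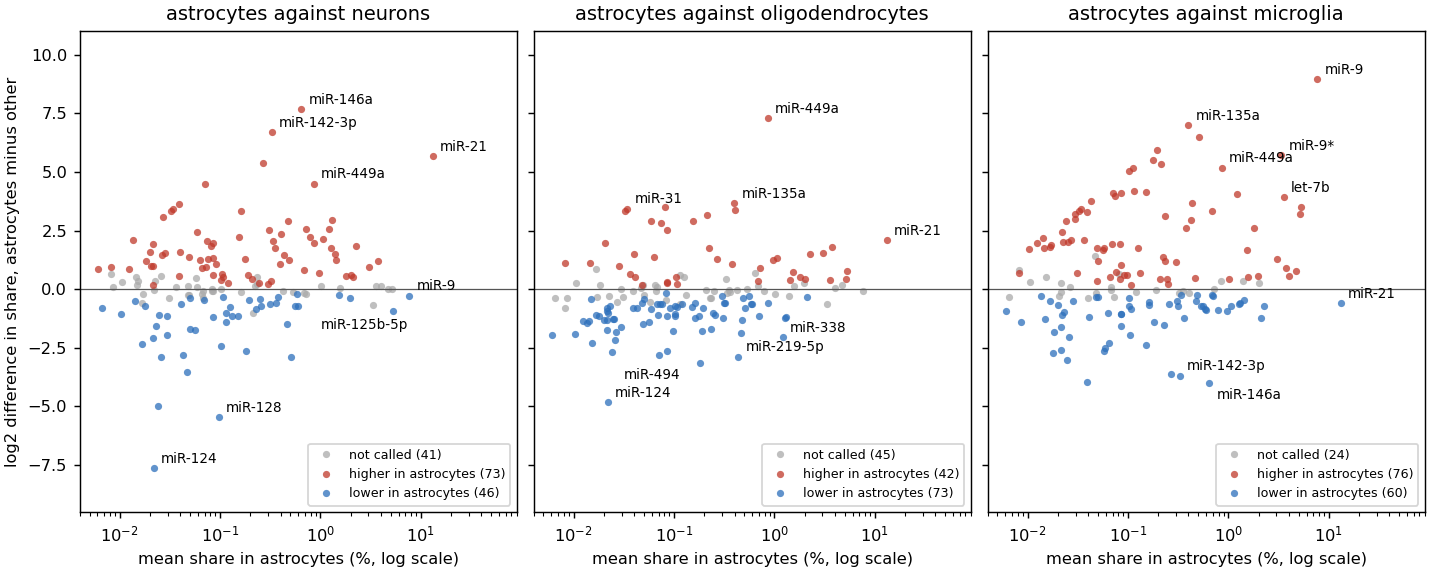
Log2 difference in share, astrocytes minus the other type (y axis), against the mean astrocyte share (x axis, %, log scale) for the 160 members in 3 panels, 1 per other type, with red for higher, blue for lower and grey for not called by limma. miR-21 stands at 5.67 against neurons and -0.60 against microglia, and miR-9 at 8.96 against microglia.

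In percentage points, the pool gained most over neurons through miR-21 (12.9 points), miR-29b (2.09), miR-23a (1.63), miR-29a (1.48) and miR-20a (1.13). The largest deficits were in miR-125b-5p (-4.79 points), miR-124 (-4.38), miR-128 (-4.17), miR-129* (-3.27) and miR-9* (-2.07), the last of which did not pass (limma, adjusted p = 0.058). For miR-9* the arrays still did not overlap, at 3.24% to 3.42% in astrocytes and 5.2% to 5.62% in neurons. The fit took its spread over all 13 arrays, and miR-9* ranged from 0.032% to 0.104% on the microglia arrays. miR-124 and miR-128 are miRNAs of mature neurons. miR-124 was 0.021%, 0.0215%, 0.0217% and 0.0234% on the astrocyte arrays, against 5%, 3.9% and 4.29% on the neuron arrays, so the astrocyte share was 0.498% of the neuronal one, and no array overlapped. On the oligodendrocyte arrays it was 0.27%, 1.96% and 0.461%, with the second array high.

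Against oligodendrocytes the largest gains were miR-21 (9.94 points), miR-29b (2.62), miR-125b-5p (2.08), miR-29a (2.01) and miR-23a (1.47). The largest deficits were miR-338 (-4.1 points) and miR-219-5p (-2.82), both of which promote oligodendrocyte differentiation, then miR-9* (-1.86), which did not pass (limma, adjusted p = 0.0872), miR-19b (-1.76) and miR-20a (-1.68). For miR-9* the oligodendrocyte arrays, at 4.93% to 5.38%, still lay above every astrocyte array. miR-338 was 1.09%, 1.18%, 1.31% and 1.27% on the astrocyte arrays, against 6.68%, 3.1% and 6.16% in oligodendrocytes. It was 0.194% to 0.212% in neurons and 0.0674% to 0.0784% in microglia, so astrocytes stood between oligodendrocytes and both other types, with no overlap.

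Against microglia the largest gains were miR-9 (7.63 points), miR-125b-5p (4.81), let-7c (4.64), let-7b (3.33) and miR-9* (3.29). The largest deficits were miR-146a (-9.88 points), a brake on Toll-like receptor signalling, miR-21 (-7.29), the haematopoietic miR-142-3p (-3.89) and miR-223 (-3.15), and miR-16 (-2.87). All 7 tested miRNAs of the microglia and myeloid list were lower than in microglia, where 35.1% of all tested miRNAs were, with a median log2 difference of -3.69 where the median over all tested was 0.0. Of the members, 24 were detected on no microglia array, 4 on no neuron array and 4 on no oligodendrocyte array. Members had to be detected in astrocytes, so these counts can run only this way and are a description. In the other direction, 152 miRNAs were detected on all microglia arrays, and 127 of these were members. The lowest detected share was also higher on the microglia arrays, with a mean of 0.00485% against 0.00227% on the astrocyte arrays. miR-384-5p, at 0.193%, was at least 41.3-fold higher than in microglia, and miR-129* at least 75.5-fold. Such bounds compare means of log2 shares, with each array of the other type at its lowest detected share or at the miRNA's own undetected value, whichever was higher.

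The astrocyte pool held miRNAs that define other cell types, at a fraction of the level there. miR-142-3p, miR-142-5p, miR-223 and miR-146a stood at 6.1% to 7.83% of their microglial shares. These 4 were picked from the 7 miRNAs of the microglia and myeloid list, so the band does not hold for the list. On it, miR-150 was not a member and held 0.0086% in astrocytes against 0.968% in microglia. For miR-146b and miR-342-3p no such ratio was taken. On the astrocyte arrays miR-142-3p was 0.319%, 0.328%, 0.331% and 0.325%, against 3.6% to 4.69% in microglia and 0.182% to 0.365% in oligodendrocytes. In neurons it was 0.00229% to 0.00261%, detected on 1 of 3 arrays. The microglia and myeloid list summed to 1.5% (1.43% to 1.55%) in astrocytes, 20.7% in microglia, 1.16% in oligodendrocytes and 0.376% in neurons, with 6 of 7 members in the pool. Of the oligodendrocyte markers, miR-338 stood at 22.8%, miR-219-2-3p at 14.3% and miR-219-5p at 13.3% of the oligodendrocyte share. The oligodendrocyte-associated list had 6 of 7 miRNAs in the pool and summed to 3.88% to 4.17%, against 7.57% to 12.4% in oligodendrocytes, 1.19% in neurons and 3.84% in microglia. Most of the astrocyte sum was miR-23a, at 2.26% against 0.79% in oligodendrocytes, which is also on the astrocyte-associated list and was lower than in microglia. The sum is therefore not a measure of oligodendrocyte markers alone. Over this list 6 of 7 were lower than in oligodendrocytes and 1, miR-23a, was higher, where 43.3% and 18.7% of all tested miRNAs were. miR-129 stood at 18.8% of its neuronal share, miR-128 at 2.28% and miR-124 at 0.498%. The neuron-associated list had 13 of 17 miRNAs in the pool and summed to 12.1% to 12.4%, against 30.2% to 31.3% in neurons, 17.1% in oligodendrocytes and 0.566% in microglia. Most of the astrocyte sum was miR-9 (7.64%) and miR-9* (3.37%), which the neural types share and which held 9.28% and 5.44% in neurons. Over this list 15 of 17 were lower than in neurons and 0 higher, where 41.4% and 31.7% of all tested miRNAs were. Of the endothelial and mural list only miR-143 was in the pool: miR-126 was detected on 1 astrocyte array, and miR-145 on none. That list summed to 0.031% to 0.0462% in astrocytes, against 0.0164% in neurons, 0.00236% in oligodendrocytes and 0.128% in microglia. Of the fibroblast and meningeal list miR-199a-3p (0.027%) and miR-152 (0.0204%) were members, and miR-199a-5p and miR-214 were detected on no astrocyte array. Its sum of 0.042% to 0.051% overlapped the 0.0405% to 0.0635% in oligodendrocytes and lay above neurons (0.0262%) and microglia (0.0369%). No muscle, erythroid or miR-200 miRNA was a member. Of 46 miRNAs of the imprinted Dlk1-Dio3 cluster, which neurons express, miR-494 and miR-487b alone were members, and the cluster held 0.238% of the astrocyte against 5.51% of the neuronal signal. Of its 40 tested miRNAs 38 were lower than in neurons and 0 higher. Over all tested miRNAs 41.4% were lower and 31.7% higher than in neurons. Of the 46, 40 were detected on all neuron arrays, but 41 on no astrocyte, 36 on no oligodendrocyte and 42 on no microglia array. Most of those tested thus entered the test through neurons alone and could only be lower, so their count is a description. All 11 miRNAs of the astrocyte-associated list were members and held 34.9% of the signal, close to the 35.4% in microglia and against 19.1% in neurons and 16% in oligodendrocytes. Of these 11, 8 were higher than in neurons, 8 higher than in oligodendrocytes, and 4 higher and 4 lower than in microglia. Over all tested miRNAs 31.7%, 18.7%, 31.0% and 35.1% were so called, so the counts against microglia were near the background. The part of other cell types in the pool was not tested.

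8 members were higher in astrocytes than in each other type, by adjusted p and at least 2-fold in all 3 pairs, where 4.10% of all tested miRNAs were so called. Of the 11 miRNAs in that percentage 4 were detected on no other array, miR-31 and miR-143 among them, so they entered the test through astrocytes alone and had to differ. The other 6 members were detected on at least 1 array of another type. The 8 were miR-449a, miR-135a, miR-34b, miR-210, miR-34c, miR-193, miR-31 and miR-143, and none of them ranked among the leading 25. With normexp background only miR-449a and miR-34b kept the call, and miR-135a, miR-210, miR-34c, miR-193, miR-31 and miR-143 lost it. miR-449a, miR-31 and miR-143 served as markers of these cultures and were chosen with this difference known, so their values are a description.

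miR-449a, which shares its seed with the miR-34 family and acts in multiciliated cells, was 0.747%, 0.829%, 0.903% and 0.969% on the astrocyte arrays. It was 0.0363% to 0.0393% in neurons, 0.0203% to 0.0263% in microglia and detected on no oligodendrocyte array. Every astrocyte array lay above all others, and the coefficient of variation of 11.1% was the highest among the 50 most abundant members, followed by miR-219-5p (8.49%) and miR-125a-5p (8.4%). The astrocyte share was 22.6 times that of neurons and 36.1 times that of microglia, and at least 158-fold higher than that of oligodendrocytes. miR-31 was 0.0411%, 0.034%, 0.0319% and 0.0301%, and miR-143, a miRNA of smooth muscle and pericytes, 0.0403%, 0.0325%, 0.0256% and 0.0315%. They were the 2 members detected on no array of another type, and were at least 7.29-fold and 6.86-fold higher than in microglia, the pair with the lowest bound.

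miR-34b and miR-34c are made from 1 cluster at chr8:60306133-60306679, overlapping Hoatz, and are known for their role in motile cilia. They differ at 2 bases, A11G and U23C counted from the 5′ end with miR-34b first, so their probes may share signal, which was not tested. miR-34b was 0.138%, 0.142%, 0.166% and 0.165% on the astrocyte arrays, against 0.0317% to 0.0326% in neurons, 0.018% to 0.0229% in oligodendrocytes and 0.00668% to 0.01% in microglia. Its log2 difference was 2.24 ± 0.14 (SE; limma, adjusted p = 3.12e-08) from neurons with larger differences from the other types. miR-34c followed at 0.068%, 0.0721%, 0.0784% and 0.0807%, with 2.04 ± 0.19 from neurons (limma, adjusted p = 1.28e-06), and was at least 12.8-fold higher than in microglia. miR-34a, the p53-responsive member with the same seed, was 0.974% in astrocytes and 1.92% in microglia, and was lower in astrocytes than in microglia by limma with a log2 difference of -0.95 ± 0.13 (adjusted p = 5.54e-05), so the seed as a whole held 2.06% in astrocytes and 1.95% in microglia. miR-449a, miR-34b and miR-34c are also on the choroid plexus and ciliated list. That list summed to 1.3% (1.16% to 1.44%) in astrocytes, 0.514% in neurons, 0.0606% in oligodendrocytes and 0.0488% in microglia. Its miR-204 held 0.211% in astrocytes and 0.387% to 0.451% in neurons, a difference that did not pass (limma, adjusted p = 0.0544), and miR-211 was detected on 2 astrocyte arrays at a mean of 0.00193%. The part of such cells in these values was not tested.

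miR-135a was 0.371% to 0.424% in astrocytes and 0.183% to 0.192% in neurons, a log2 difference of 1.08 ± 0.24 (limma, adjusted p = 0.00146), and at least 85.3-fold higher than in microglia. It fell short of the 2-fold limit with scaling to the 75th percentile. miR-210, a target of the hypoxia factor HIF, was 0.0855% ± 0.00668 (SD, n = 4) in astrocytes and 0.0422% ± 0.00737 in microglia, a log2 difference of 1.03 ± 0.29 (limma, adjusted p = 0.00834), and it kept the call with none of the other scalings. miR-193 was 0.0582% ± 0.00544, with the smallest difference from microglia at 1.76 ± 0.26 (limma, adjusted p = 8.07e-05).

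4 members were lower than in each other type, where 3.36% of all tested miRNAs were so called: miR-494, miR-7a, miR-125a-3p and miR-139-3p. miR-7a, which is abundant in neuroendocrine cells and neurons, was 0.0278%, 0.026%, 0.0232% and 0.026% on the astrocyte arrays and 0.0744% to 0.214% on the other 9, with log2 differences of -2.90 ± 0.28 from neurons, -2.17 ± 0.28 from oligodendrocytes and -2.04 ± 0.28 from microglia (SE; limma, highest adjusted p = 4.83e-05). miR-494, of the Dlk1-Dio3 cluster, was 0.174%, 0.211%, 0.154% and 0.179%, against 0.972% to 1.38% in neurons, 1.07% to 2.91% in oligodendrocytes and 0.372% to 0.669% in microglia. Both kept the call with each other scaling. miR-125a-3p, at 0.0244% against 0.0528% in neurons, lost it with all 3, and miR-139-3p in the deposited table.

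**Figure D5:**
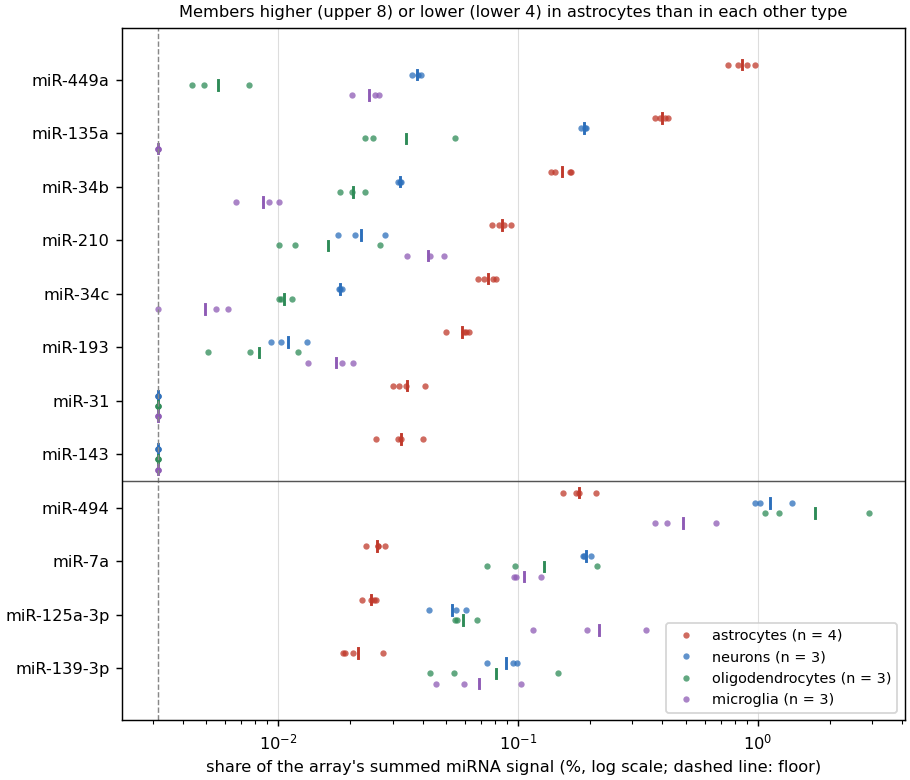
Share (x axis, %, log scale) of the 8 members higher and the 4 members lower in astrocytes than in each other type (y axis), with 1 point per array, a bar at each type's mean and values below the floor of 0.00315% drawn at the dashed line. All astrocyte points of the upper 8 lie to the right of those of the other types, and those of the lower 4 to the left.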

How the data were processed

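Total RNA of 13 samples was measured on 1-colour Agilent rat miRNA arrays with 938 probes on 7000 miRNA spots for 350 miRNAs. Intensity values are the authors' total signal per miRNA, background-subtracted and unscaled, with a detection flag, per the file headers (Feature Extraction 9.5.3.1). A deposited table of log2 values has the same column median, 5.15, on every array. Its method is not given in the sources used here, and it served only as an alternative, read as log2. Its member counts against neurons, 98 higher and 39 lower, were close to the 99 and 37 after quantile normalization. These 2 alternatives are therefore not separate checks.

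Shares were percentages of summed positive intensity. For limma 3.58.1 (R 4.3.3) shares under 0.00315%, the middle value of the arrays' lowest detected shares, were raised to it before log2. All 13 arrays entered with a mean per type, and adjustment ran over 268 miRNAs. The fit was tested on simulated data. Alternatives changed scaling, background, probe summary, filter, floor, moderation, samples and block. Sequences came from RefSeq (GRCr8), matched by name (27 members), array coordinates (59) or later arm names (52); 22 had none. The 13 lists came from general knowledge. Members, lists and named miRNAs were chosen with earlier results of these data known. The naming rule took the 20 most abundant, 3 markers, 5 largest gains and deficits per pair, those called against each type, the 3 steadiest and 3 least steady, the detection edge, 5 leading families and list members. Other families, clusters and miR-384-5p were named after their values were seen. p-values measure the spread between these samples. The number of arrays limits the precision. Replicate numbers did not pair samples (correlations of same-number deviations -0.39 to 0.21).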

Additional observations from a re-analysis of the deposited data

Results flagged for a closer look

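Among 75 values examined over the 4 astrocyte arrays, 5 had 1 array far from the other 3, by a gap that chance gives in about 1 in 20 such groups. let-7a was 4.77% on array 4 and 4.68% to 4.7% on the others. miR-9*, which is alone in its seed family and so counts as 2 of the 5, was 3.24% on array 1 and 3.4% to 3.42% on the others. The oligodendrocyte-associated list summed to 3.88% on array 1 and 4.13% to 4.17% on the others. The lowest detected signal was 8.05 units on array 3 and 3.22 to 3.81 on the others, and array 3 set the size of the pool.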

How the results depend on the processing

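Named miRNAs kept their direction and side of the threshold in 2176 of the values recomputed, lost the call in 42, gained it in 39 and turned in 29. With scaling to the 75th percentile 77 members were lower than in neurons, and differences turned against neurons for let-7c (-0.44), let-7a (-0.44), let-7f (-0.33), let-7b (-0.31) and let-7i (-0.41) and against oligodendrocytes for miR-9 (0.28), miR-16 (0.0345), miR-23b (0.0771) and miR-142-5p (0.30). After quantile normalization let-7i turned against neurons (-0.0648) and let-7f (-0.17) and miR-142-5p (0.46) against oligodendrocytes. In the deposited table the same 3 were -0.0777, -0.18 and 0.34, miR-21 was 0.12 against microglia, and 2 members were lower than in each type. With normexp background, let-7c (-0.0789), let-7a (-0.0729) and let-7i (-0.032) turned against neurons, 48 members were higher than in microglia, 2 were higher and 2 lower than in each type, the 10 brightest held 46.7%, and 12 and 123 miRNAs made up 50% and 90%; its offset adds the same amount to every probe. Testing only miRNAs detected on all arrays left 44 members higher than in microglia and 2 higher than in each type, since the others were not tested.

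With the replicate block, let-7c (-0.00384) and let-7a (-0.000302) turned against neurons, and miR-21 lost its call against microglia (adjusted p = 0.088 by limma). The block left 72 members higher and 44 lower than in neurons, 40 and 72 against oligodendrocytes, 71 and 57 against microglia, and 8 and 4 against each type. Slide as a block could not be fitted. Leaving out each array in turn gave 69 to 74 higher and 41 to 45 lower than in neurons, 37 to 49 and 71 to 76 against oligodendrocytes, 70 to 78 and 54 to 59 against microglia, and 7 to 8 and 3 to 4 against each type. The same omissions gave -0.0754 to 0.039 for let-7c, -0.0884 to 0.0543 for let-7a and -0.00574 to 0.0613 for let-7i against neurons, and -0.11 to 0.11 for let-7f and -0.34 to 0.37 for miR-142-5p against oligodendrocytes. The cause of these turns was not tested. Signal near background limits the dim members: 152 miRNAs passed 3 times the error on all 4 arrays, 150 of them members.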
